A study of Mus musculus with 6 samples.

Results

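Amino acid transporters of the plasma membrane were followed in C2C12 myotubes kept in insulin for 48 h and in untreated myotubes. The 10 transporter genes were taken as named genes (Slc1a3, Slc1a4, Slc1a5, Slc7a1, Slc7a3, Slc7a5, Slc3a2, Slc38a2, Slc43a1 and Slc43a2), and their probe sets were those whose platform annotation gives exactly that 1 symbol. This gave 133 of the 241576 probe sets on the arrays and 10 of 20416 genes. C2C12 is a mouse myoblast line that fuses into myotubes in low serum. The 3 insulin cultures received 100 nM insulin for 48 h in the fusion medium, a long exposure meant per the labels to make the cells insulin resistant, and the 3 control cultures had no treatment. All 6 cultures were grown in 10% fetal bovine serum, differentiated in 2% horse serum and used as myotubes between days 4 and 7, per the labels' protocols. For both groups these protocols give 24 h for the medium change. No genetic change is named for either group, and all cultures come from 1 immortalised line, so they are a model of muscle fibres without nerve or vessel. Most markers of cycling cells and of undifferentiated myoblasts were also bright enough to test, as given below, so the cultures are not taken as myotubes alone.

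Muscle cells take up amino acids through carriers of several mechanisms. Exchangers such as ASCT1, ASCT2 and the LAT1-CD98 heterodimer swap one amino acid for another, cationic carriers bring in arginine and lysine, sodium-coupled carriers concentrate small neutral amino acids or glutamate, and facilitators let branched-chain amino acids run down their gradient. Leucine and arginine that enter this way are signals for mTORC1, the kinase complex through which insulin also raises protein synthesis, and many genes of exchangers and cationic carriers are known targets of ATF4, the transcription factor of the amino acid response.

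Genes of the SLC1 neutral exchangers and of the cationic carrier CAT1 were higher after insulin, and the genes of leucine facilitators and of a glutamate carrier were lower. Of the 10 genes, 5 were called higher (Slc1a5, Slc1a4, Slc7a1, Slc3a2 and Slc7a3, the last tested only because its insulin arrays were bright enough), 3 fell (Slc43a2, Slc1a3 and Slc43a1) and 2 did not pass the test (Slc7a5 and Slc38a2). The test was limma's moderated test of insulin minus control across 14291 genes, two-sided, with a Benjamini-Hochberg adjusted p under 0.05. Over all tested genes it called 15.9%, with 9.56% higher and 6.35% lower. A gene's value was the median of the log2 RMA values of its probe sets on an array, so a difference of 1 is a doubling, and values of different genes are not compared with each other because probes differ in brightness. Log2 changes of the 10 genes had a median of 0.19 and ran from -0.78 to 1.04, against a median of -0.0028 over all tested genes. In bulk RNA a smaller share of cells that express a gene and less of its RNA per cell cannot be told apart.

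All 10 genes passed the filter on dim genes, which left out those whose mean over the 6 arrays was under 7.05 on the log2 scale. Slc7a3 passed it only through its insulin arrays, as its mean in controls was 6.95. In 9 of the 10 genes the insulin arrays lay wholly above (5 genes) or below (4 genes) the control arrays. Over all tested genes such a split was seen in 35.7%, with 20% above and 15.7% below.

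**Figure D1:**
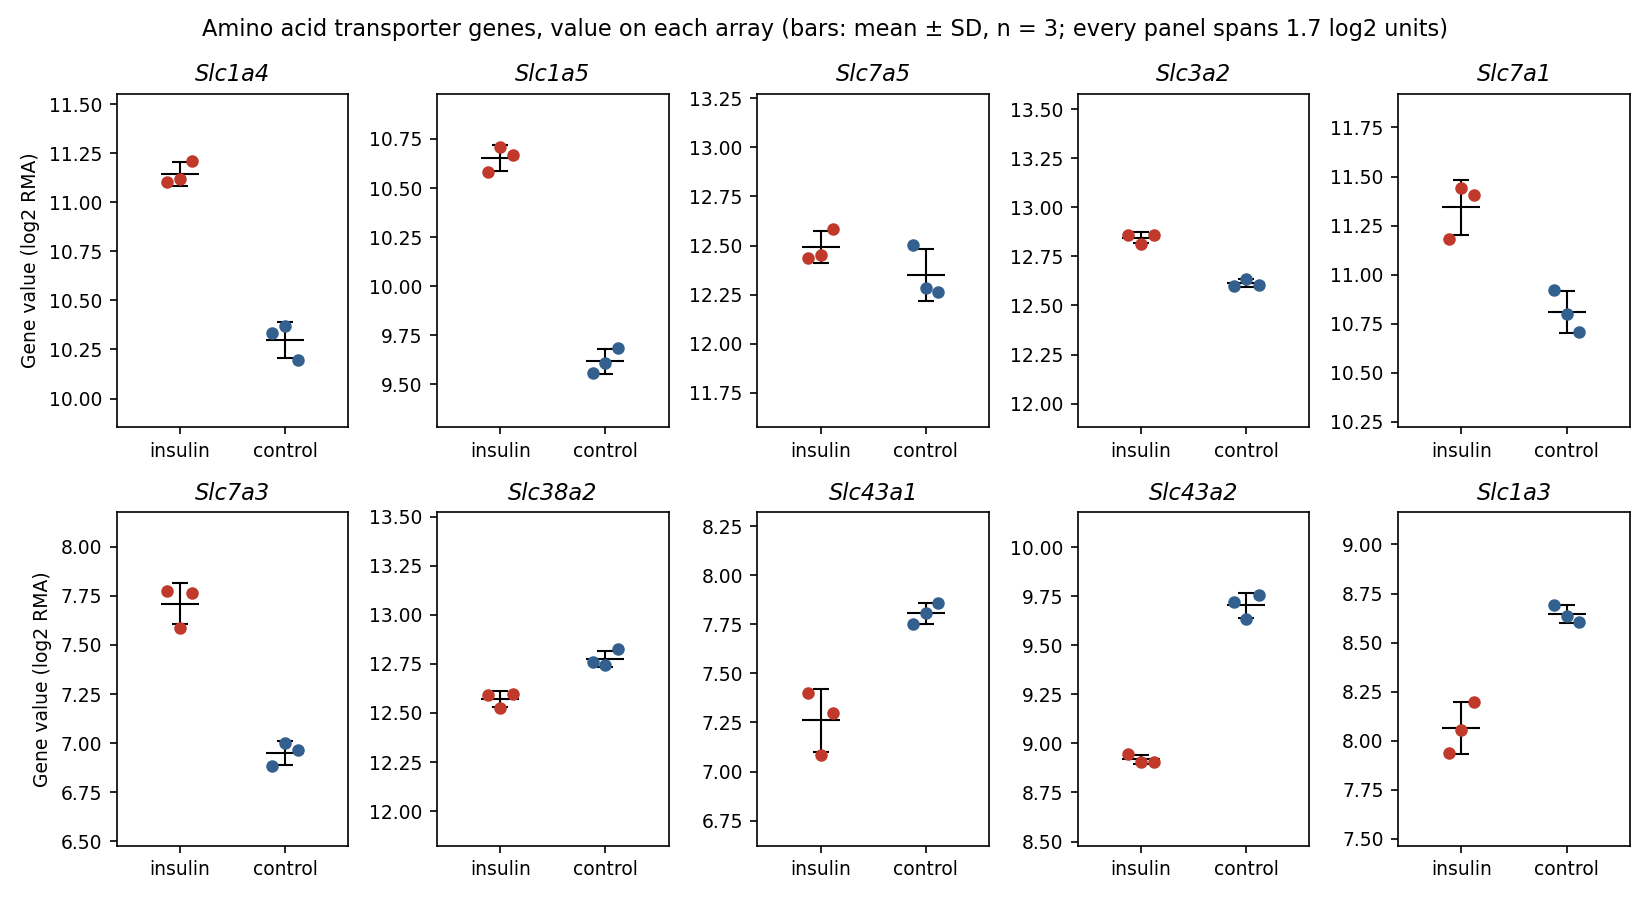
Gene values (log2 RMA, vertical axes, each spanning the same width) of the 10 transporter genes on the 3 insulin arrays (red, left) and the 3 control arrays (blue, right), with horizontal bars for the mean ± SD. The groups are apart in 9 genes, and in Slc7a5 the control 1 array at 12.50 lies among the insulin arrays at 12.44 to 12.59.

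The arrays themselves were alike, with medians of 8.80 to 8.82 in insulin and 8.79 in each control. Over all tested genes 9.56% were called higher and 6.35% lower, which the counts of markers are set beside. Myotube markers were present, with 12 of 12 above the filter, and 3 of them (Mb, Ckm and Myog) fell while none rose, at a median change of -0.23. In 10 of the 12 all insulin arrays were below all control arrays, against 15.7% of all tested genes, and in 2 the groups overlapped. The summed level of the myotube markers, as the log2 of summed linear values, was 16.62 to 16.67 in insulin and 16.80 to 16.91 in control. Of 11 cycling cell markers 10 rose and none fell, at a median of 0.57, with a summed level of 15.37 to 15.46 in insulin and 14.95 to 15.02 in control. Undifferentiated myoblast markers counted 3 rises (Cd34, Met and Myf5) and 2 falls (Heyl and Myod1) among 9 tested, with a summed level of 13.85 to 13.88 in insulin and 13.93 to 14.01 in control. Of 5 tested fibroblast markers 1 fell (Dcn) and none rose, and the list's summed level was 12.93 to 13.03 in insulin and 13.19 to 13.37 in control. None of the 6 tested markers of adipocytes, macrophages and endothelial cells passed, and the other 12 of these 18 lay under the filter. Summed levels were 9.71 to 9.78 in insulin and 9.68 to 9.93 in control for adipocytes, 9.16 to 9.24 in insulin and 9.17 to 9.30 in control for macrophages, and 9.31 to 9.35 in insulin and 9.23 to 9.43 in control for endothelial cells. What part these shifts have in the transporter results was not tested.

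The neutral amino acid exchangers of the SLC1 family changed most among the rises. Slc1a5 encodes ASCT2, a sodium-dependent exchanger known for glutamine uptake in growing cells. Its values were 10.58, 10.71 and 10.67 on the insulin arrays, against 9.56, 9.61 and 9.69 on the control arrays. The groups lay about 1 log2 unit apart with little spread inside either. The means were 10.65 ± 0.065 in insulin and 9.62 ± 0.065 in control (SD, n = 3 each), a 2.05-fold rise (95% interval 1.84 to 2.29, limma adjusted p = 0.000177). It stood 41st among the 14291 tested genes, ranked from the highest change.

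Slc1a5 has 12 probe sets, each covering a stretch of the gene, and 11 of them passed the brightness filter for probe sets (7.57 on the log2 scale). Of these 9 were higher by limma fitted across 148468 probe sets, where 5.66% were called, 3.95% higher and 1.71% lower. Their log2 changes ran from 0.96 to 1.75. Probe set 10550336 stood apart from this, with 9.69, 9.60 and 9.68 in insulin against 9.80, 9.54 and 9.64 in control. Its groups overlapped, with a change of 0.00069 ± 0.094 (SE, limma adjusted p = 0.998), although it was not dim, with a mean level of 9.66. The highest change was at 10550337, next to it in number. The brightest probe set, 10550340, rose by 1.35 on the log2 scale.

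Slc1a4 encodes ASCT1, an exchanger of alanine, serine, cysteine and threonine. Its values were 11.10, 11.12 and 11.21 on the insulin arrays, against 10.33, 10.37 and 10.20 on the control arrays. Every insulin array was well above every control array. The means were 11.14 ± 0.059 in insulin and 10.30 ± 0.092 in control (SD, n = 3 each), a 1.79-fold rise (95% interval of the log2 change 0.68 to 1.01, limma adjusted p = 0.000599). All 10 of its probe sets above the filter rose, by 0.67 to 1.13 on the log2 scale, and none of the other 9 genes had all of its tested probe sets called. The lowest of these changes was at its brightest probe set, 10384545, and the highest at 10384547. Its other 2 probe sets were dim and not tested.

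Promoter windows from RefSeq (build GRCm38.p6, 250 bases before to 50 after a gene's start) were at hand for 7 of the 10 genes, in 9 windows. Slc1a5, Slc7a5 and Slc7a3 were not among them. They were searched on both strands for the composite C/EBP-ATF element bound by ATF4 (TGATGNAAN), the E-box CACGTG bound by MYC and related factors, and the FoxO element GTAAACA. A match was found in 2 windows, 1 in each, so no matches overlapped. The window of Slc1a4 (chr11:20332664-20332963, minus strand) is shown because all tested probe sets of this gene rose and its match, in capitals, spans the annotated start from position -5. It reads on the opposite strand to the gene, and TGATGNAAN is held by 3.95% of all 32851 windows.
Slc1a4: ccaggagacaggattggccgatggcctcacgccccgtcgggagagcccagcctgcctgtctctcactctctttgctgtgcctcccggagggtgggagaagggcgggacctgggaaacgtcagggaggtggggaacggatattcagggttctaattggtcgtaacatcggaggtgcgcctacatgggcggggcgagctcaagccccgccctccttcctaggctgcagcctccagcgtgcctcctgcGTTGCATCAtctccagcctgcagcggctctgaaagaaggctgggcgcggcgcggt
The window of Slc43a1 (chr2:84840073-84840372, plus strand), a gene that fell, holds the E-box in capitals at position -64, a motif found in 7.15% of all windows.
Slc43a1: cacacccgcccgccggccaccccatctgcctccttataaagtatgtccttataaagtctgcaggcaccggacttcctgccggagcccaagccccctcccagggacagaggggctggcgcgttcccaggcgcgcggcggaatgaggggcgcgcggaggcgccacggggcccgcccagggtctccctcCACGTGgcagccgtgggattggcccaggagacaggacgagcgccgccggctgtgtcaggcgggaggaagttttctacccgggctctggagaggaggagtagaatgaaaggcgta
None of the 9 windows held GTAAACA, which 3.65% of all windows hold. A match is a description of these letters and does not show that a factor was bound.

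The heavy and light chains of LAT1 differed from the SLC1 exchangers in size. Slc3a2 encodes CD98, the heavy chain that carries LAT1, xCT and other light chains to the membrane. Its values were 12.86, 12.81 and 12.86 on the insulin arrays, against 12.60, 12.64 and 12.61 on the control arrays. The groups were apart by a small gap, with little spread inside either. The means were 12.85 ± 0.027 in insulin and 12.61 ± 0.020 in control (SD, n = 3 each), a 1.17-fold rise (95% interval 1.07 to 1.29, limma adjusted p = 0.0350). This call lay close to the threshold: it was lost when any 1 of the 6 arrays was left out, with adjusted p from 0.0575 without control 1 to 0.112 without insulin 3.

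Probe set 10465773 of Slc3a2 behaved unlike the other 9. It was the dimmest of the gene, with 9.29, 9.81 and 9.71 in insulin against 8.35, 8.67 and 8.37 in control. Its rise was 1.13 ± 0.16 on the log2 scale (SE, limma adjusted p = 0.0173), while the others had changes of 0.19 (10465776, the brightest) to 0.35. Of those, 10465779 passed as well (0.35, adjusted p = 0.0483) and 8 did not. The sign was positive in all 10.

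Slc7a5 encodes LAT1 itself, the light chain that imports leucine and other large neutral amino acids in exchange for glutamine. Its values were 12.44, 12.45 and 12.59 on the insulin arrays, against 12.50, 12.29 and 12.26 on the control arrays. Control 1 lay above 2 of the insulin arrays, so the groups overlapped. The means were 12.49 ± 0.082 in insulin and 12.35 ± 0.13 in control (SD, n = 3 each), a ratio of 1.10 (95% interval 0.962 to 1.27) that did not pass (limma adjusted p = 0.322). The interval leaves room for a rise as large as that of Slc3a2 but not for one as large as that of Slc1a5. Without control 1 the log2 change was 0.22 and still did not pass (adjusted p = 0.0969). None of its 11 probe sets passed, though the sign was positive in 10 of 11, with log2 changes from -0.0094 at 10582285 to 0.24 at 10582282 and 0.15 at the brightest, 10582279. It did pass with array quality weights (0.20, adjusted p = 0.0321).

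The chains of the heterodimer were set against each other array by array. Slc7a5 minus Slc3a2 was -0.42, -0.36 and -0.27 on the insulin arrays, against -0.098, -0.35 and -0.34 on the control arrays. The groups overlapped, with control 1 apart from the other 5 arrays. The means were -0.35 ± 0.076 in insulin and -0.26 ± 0.14 in control (SD, n = 3 each), a difference of -0.090. The exact permutation test over arrays gave a two-sided p of 0.4, where 0.1 is the smallest that 3 against 3 arrays allow, and without control 1 the difference was -0.0071.

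Of the genes of cationic amino acid carriers Slc7a1 rose, and the call for Slc7a3 depended on the probe sets used. Slc7a1 encodes CAT1, the widely expressed carrier of arginine, lysine and ornithine, which needs no heavy chain. Its values were 11.18, 11.44 and 11.41 on the insulin arrays, against 10.92, 10.80 and 10.71 on the control arrays. Insulin 1 was the lowest of its group and control 1 the highest of its own, and they still did not meet. The means were 11.34 ± 0.14 in insulin and 10.81 ± 0.11 in control (SD, n = 3 each), a 1.45-fold rise (95% interval 1.25 to 1.68, limma adjusted p = 0.00803). Of its 13 probe sets 7 passed, all higher, and all 13 had a positive sign with changes from 0.26 at 10535856 to 0.62 at 10535863. The brightest, 10535855, gave 0.35 on the log2 scale, which as the gene's value still passed (adjusted p = 0.0385).

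Slc7a3 encodes CAT3, a related cationic carrier described mainly in brain. Its values were 7.77, 7.59 and 7.77 on the insulin arrays, against 6.88, 7.00 and 6.96 on the control arrays. The groups were well apart in this median over probe sets. The means were 7.71 ± 0.11 in insulin and 6.95 ± 0.062 in control (SD, n = 3 each), a ratio of 1.69 (95% interval of the log2 change 0.59 to 0.94, limma adjusted p = 0.00114). Detection calls were not used here, so it is not known whether the control level was above background, and the ratio is one of RMA values. The gene was not tested with the 50th percentile filter, and with no filter, where its brightness did not decide whether it was tested, the adjusted p was 0.00286.

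The probe sets of Slc7a3 did not respond alike. Only 5 of its 12 were above the filter, and of those 10605991 rose (0.56, limma adjusted p = 0.0274) and 4 did not pass, among them 10605987 with the highest change of the 5 (1.17, adjusted p = 0.0614). It was tested only through its insulin arrays, as the mean of 10605987 in controls was 7.52. The brightest, 10605997, had 9.31, 9.45 and 9.18 in insulin against 9.49, 9.41 and 9.08 in control, a change of -0.012. The 6 dimmer probe sets had a median change of 0.99 and the 6 brighter ones 0.37. The highest of all 12, 1.87, was at 10605995, too dim to be tested, whose control values were 4.65, 4.94 and 4.44. With the brightest as the gene's value the call was not made (limma adjusted p = 0.965), and with the brighter probe sets it was, at a log2 change of 0.49 (adjusted p = 0.00821).

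**Figure D2:**
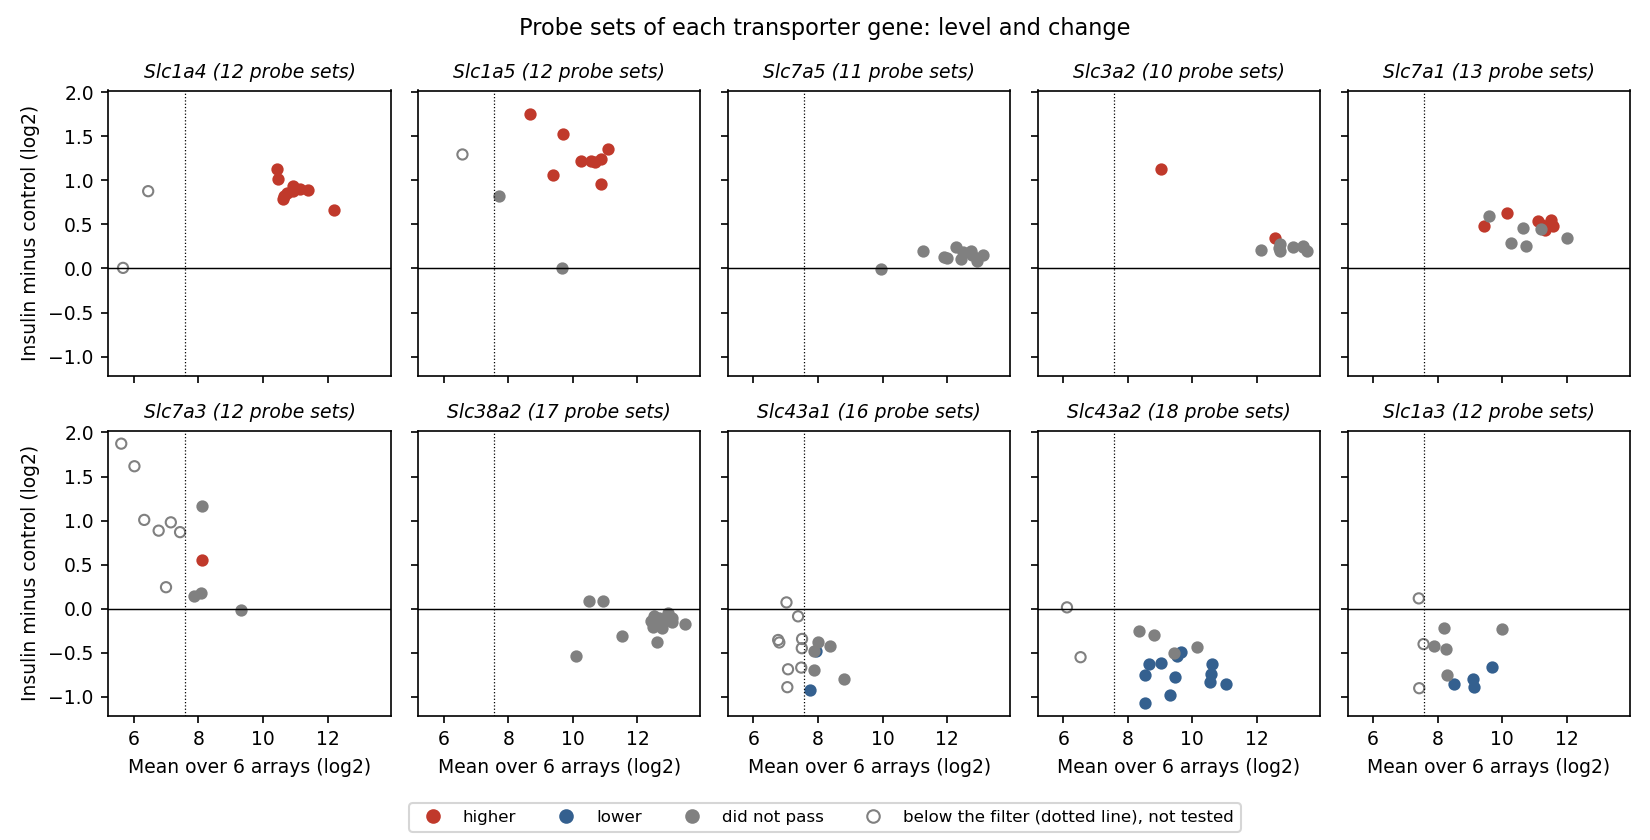
Each point is a probe set of the named gene, with its mean over the 6 arrays (log2) on the horizontal axis and insulin minus control (log2) on the vertical axis. Red points were higher and blue points lower by limma, filled grey points did not pass, and open points left of the dotted line at 7.57 were too dim to be tested. Slc1a4 forms a tight group of rises, and Slc1a5 and Slc3a2 each have a probe set apart from the rest. In Slc7a3 the median change was 0.99 for the 6 dimmer probe sets and 0.37 for the 6 brighter ones. The Slc7a3 probe set called higher, 10605991, lies among the brighter ones.

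Slc38a2 encodes SNAT2, a sodium-coupled carrier of alanine, glutamine and other small neutral amino acids, which insulin is known to move to the surface of rat muscle cells. Its values were 12.59, 12.52 and 12.60 on the insulin arrays, against 12.76, 12.75 and 12.82 on the control arrays. All insulin arrays were below all control arrays by a small margin. The means were 12.57 ± 0.041 in insulin and 12.78 ± 0.042 in control (SD, n = 3 each), a ratio of 0.868 (95% interval 0.785 to 0.959) that did not pass (limma adjusted p = 0.0634). None of its 17 probe sets passed, with 15 lower and 2 higher in sign. The changes ran from -0.54 at 10431911 to 0.085 at 10431907, with -0.17 at the brightest, 10431902. The gene passed as lower after centring of the arrays (adjusted p = 0.0447), with the 50th percentile filter (0.0362), with an intensity trend and robust prior (0.00985) and with array quality weights (0.0180), and the log2 change lay between -0.23 and -0.16 under all alternatives.

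Both SLC43 facilitators fell. Slc43a2 encodes LAT4, which lets leucine, isoleucine, valine, phenylalanine and methionine cross without sodium, exchange or a heavy chain. Its values were 8.95, 8.90 and 8.91 on the insulin arrays, against 9.72, 9.63 and 9.75 on the control arrays. The insulin arrays were nearly identical and far below the controls. The means were 8.92 ± 0.024 in insulin and 9.70 ± 0.063 in control (SD, n = 3 each). The ratio was 0.581 (95% interval 0.524 to 0.644, limma adjusted p = 0.000491), and the gene stood 33rd among the tested genes, ranked from the lowest change.

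Of the 16 probe sets of Slc43a2 above the filter 12 fell and none rose, and 17 of all 18 were negative. Their changes ran from -1.07 at 10378654 to -0.26 at 10378651 among those tested. The brightest, 10378663, had 10.50, 10.67 and 10.64 in insulin against 11.46, 11.47 and 11.44 in control, a change of -0.85. With its brighter probe sets the gene's change was -0.50 (limma adjusted p = 0.0484).

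Slc43a1 encodes LAT3, a facilitator of the same substrates. Its values were 7.40, 7.09 and 7.30 on the insulin arrays, against 7.75, 7.81 and 7.86 on the control arrays. The insulin arrays were lower and more scattered than the controls. The means were 7.26 ± 0.16 in insulin and 7.81 ± 0.053 in control (SD, n = 3 each), a ratio of 0.685 (95% interval 0.594 to 0.790, limma adjusted p = 0.00650). Whether the insulin level was above background is not known, and the ratio is one of RMA values. Of the 16 probe sets of Slc43a1 9 were below the filter, and of the other 7, 10473370 (-0.92) and 10473371 (-0.48) fell and 5 did not pass, the least changed being 10473376 (-0.38). The first of these, 10473370, was tested only through its control arrays, as its mean was 7.28 in insulin and 8.20 in control. So was 10473374, which did not pass, with means of 7.51 in insulin and 8.21 in control. The brightest of the gene, 10473378, changed by -0.80 with insulin values of 8.99, 8.52 and 7.71 against 9.27, 9.22 and 9.13 in control. With that probe set as the gene's value the call was not made (adjusted p = 0.133).

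Slc1a3 encodes GLAST, a sodium-coupled carrier of glutamate and aspartate best known from glia. Unlike its family members Slc1a4 and Slc1a5 it was lower after insulin. Its values were 7.94, 8.05 and 8.20 on the insulin arrays, against 8.69, 8.64 and 8.60 on the control arrays. The gap between the groups was larger than the spread inside them. The means were 8.06 ± 0.13 in insulin and 8.64 ± 0.046 in control (SD, n = 3 each), a ratio of 0.668 (95% interval 0.587 to 0.761, limma adjusted p = 0.00353). Of its 9 probe sets above the filter 4 fell (10427595 by 0.89, 10427596 by 0.85, 10427591 by 0.80 and 10427594 by 0.66) and 5 did not pass, the least changed being 10427601 (-0.22). The brightest, 10427593, was at -0.23 and as the gene's value did not pass (adjusted p = 0.192), while with the brighter probe sets the gene was at -0.84 (adjusted p = 0.000334).

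Over the 133 probe sets of the 10 genes, 109 were above the filter, of which 29 were higher, 18 lower and 62 did not pass. Over all 148468 tested probe sets 5.66% were called, with 3.95% higher and 1.71% lower. The higher ones belonged to Slc1a4 (10), Slc1a5 (9), Slc7a1 (7), Slc3a2 (2) and Slc7a3 (1), and the lower ones to Slc43a2 (12), Slc1a3 (4) and Slc43a1 (2). Among those of Slc43a1, 10473370 was tested only through its control arrays. No gene had probe sets called in both directions. Probe sets of a gene measure the same RNA and are not replicates. Without insulin 1, 2 or 3 the called ones were 16, 13 and 12 higher and 5, 3 and 4 lower, and without control 2 they were 19 and 5. The share over all probe sets without an array was not computed, so these counts are not read as particular to the 10 genes.

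**Figure D3:**
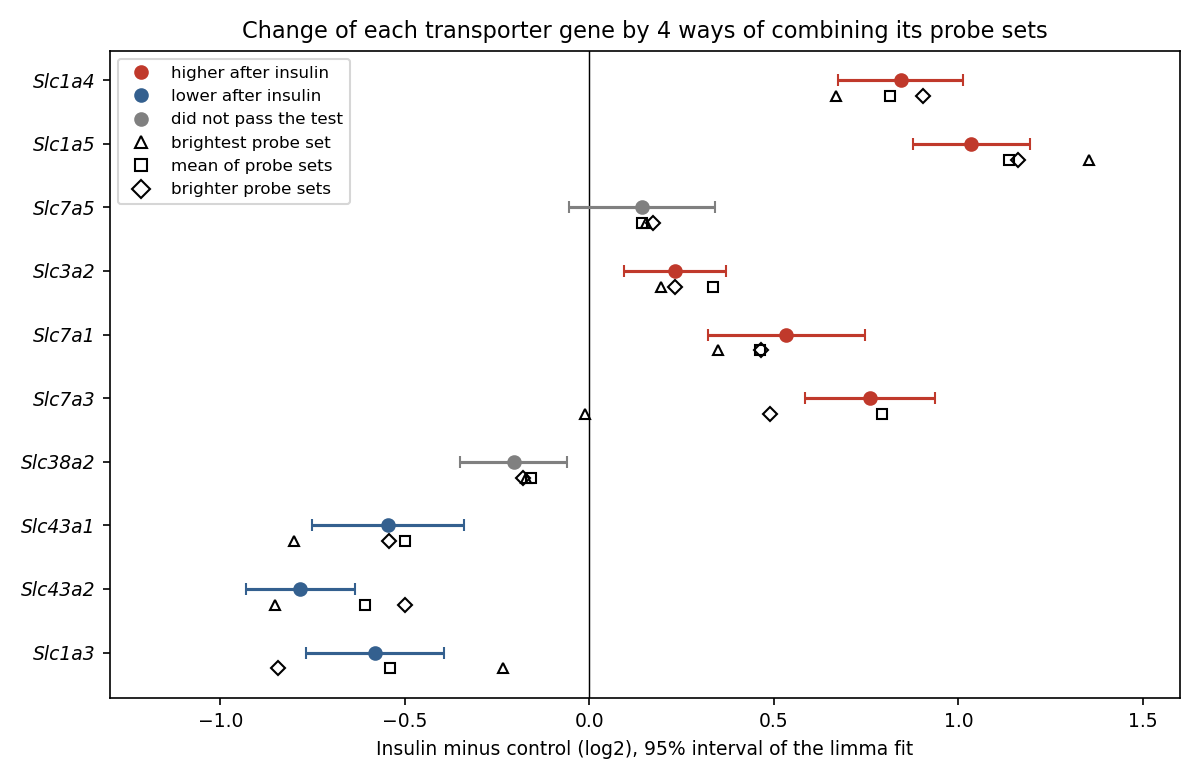
Insulin minus control (log2, horizontal axis) of each transporter gene as the median of its probe sets (filled circles, with the 95% interval of the limma fit), and with the brightest probe set (triangles), the mean (squares) or the brighter probe sets (diamonds) in its place. The sign is the same in all 4 ways for 9 genes, and the triangle of Slc7a3 lies at -0.012.

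For the 3 genes with the smallest limma p, the nearest patterns among the other 14281 tested genes were sought by the root mean square difference over the 6 arrays, with each gene centred on its mean. Nearest to Slc1a5 were Mlkl, Stc2 and Abcc4, at differences of 0.056, 0.061 and 0.062 on the log2 scale. Nearest to Slc43a2 were Syn2, Egr2 and Rnase4, at 0.052, 0.053 and 0.058. Nearest to Slc1a4 were Mcm10, Palb2 and Gm129 (Ciart), at 0.049, 0.053 and 0.053. With 2 groups this measure mostly picks genes whose change was of like size.

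Other SLC genes listed as plasma membrane amino acid transporters numbered 35, of which 19 were bright enough to test. Of these 4 were called higher, none was called lower and 15 did not pass, with a median change of -0.015. The share called was 21.1%, against 15.9% of all tested genes, and its difference from the share of the 10 genes was not tested. This share counts Slc7a11, which was tested only because its insulin arrays were bright enough, so it is not read as a result about the list. At an unadjusted p under 0.05 there were 4 higher and 2 lower (Slc6a19 and Slc7a2). The share of all tested genes at that p was not computed, so these counts are not read as a result about the list. The ratios were 0.778 for Slc6a19 and 0.797 for Slc7a2, a cationic carrier gene as well, each with a limma adjusted p of 0.117. In both genes the insulin and control arrays overlapped. The highest change was at Slc7a11, the gene of the cystine-glutamate exchanger xCT that pairs with the heavy chain of Slc3a2. It had 10.21, 10.30 and 10.15 in insulin against 6.69, 7.06 and 6.31 in control. It was therefore tested only through its insulin arrays, and since its control level is not known to be above background, the size of the difference (3.54 on the log2 scale of RMA values) is given as a description. Slc6a9, the glycine carrier GLYT1, rose 1.48-fold, Slc38a1, the sodium-coupled glutamine carrier SNAT1, rose 1.33-fold, and Slc43a3, listed here by its family but known to carry purine nucleobases, rose 1.21-fold (limma adjusted p = 0.00197, 0.00564 and 0.0237). Slc43a3 thus went the other way from Slc43a1 and Slc43a2.

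Carriers of inner membranes were taken from chosen lists, and where each acts in these cells was not examined. The shares called were 13.3% for the lysosomal and vesicular list and 30.8% for the mitochondrial list, against 15.9% of all tested genes. No difference between these shares was tested. Of 15 tested symbols listed as lysosomal and vesicular transporters 2 rose, Slc38a6 (1.33-fold, limma adjusted p = 0.0119) and the lysosomal glutamine carrier gene Slc38a7 (1.32-fold, adjusted p = 0.0162), and none fell. Slc38a9 stands there under 2 symbols of the old annotation. At an unadjusted p under 0.05 there were 4 higher and 3 lower in this list. The share of all tested genes at that p was not computed, so these counts are not set against the 15.9%. The median change of the list was -0.032. Of 13 tested mitochondrial carriers 3 rose and 1 fell, with a median of 0.17. Sfxn1, the mitochondrial serine carrier, had 11.51, 11.75 and 11.57 in insulin against 10.56, 10.69 and 10.78 in control, a 1.91-fold rise (limma adjusted p = 0.000872). The aspartate-glutamate carrier gene Slc25a13 rose 1.37-fold and the ornithine carrier gene Slc25a15 rose 1.30-fold (adjusted p = 0.00783 and 0.0117). Slc25a29, a carrier of basic amino acids, was the gene that fell, to 8.93 ± 0.13 in insulin against 9.27 ± 0.032 in control (SD, n = 3 each, limma adjusted p = 0.0252).

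**Figure D4:**
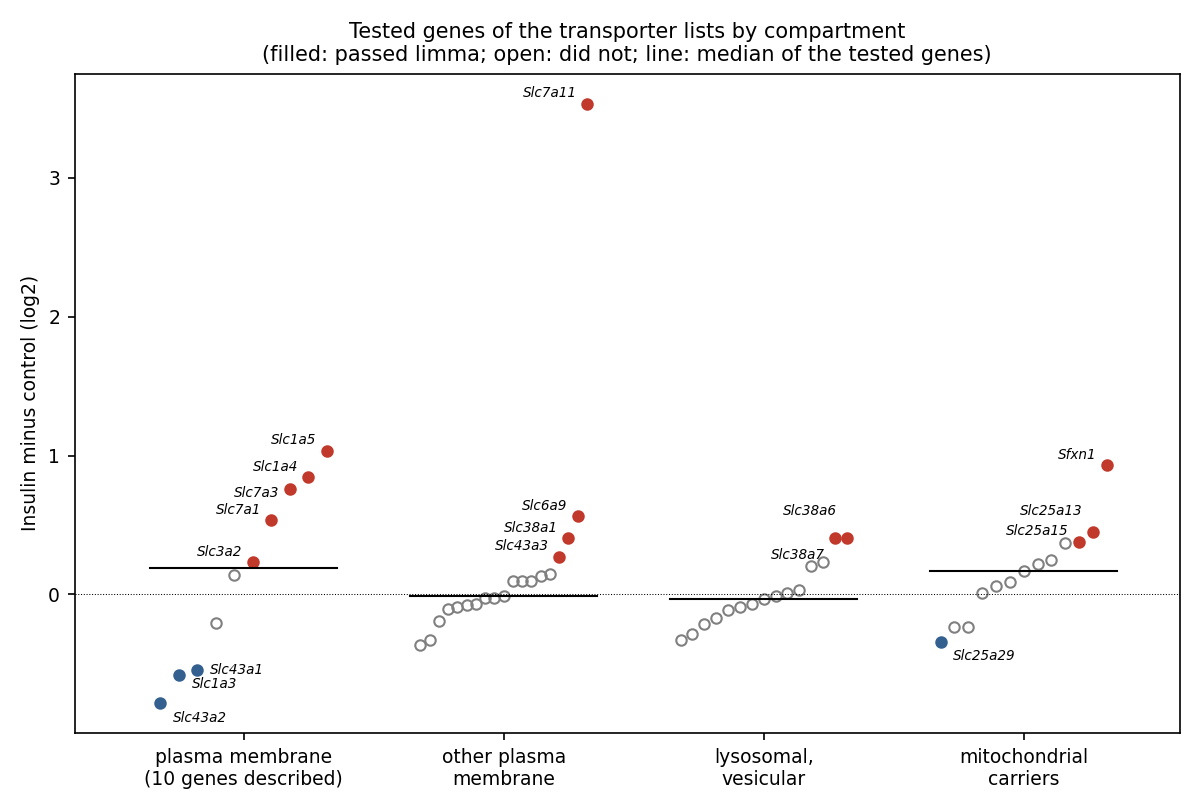
Insulin minus control (log2, vertical axis) of each tested gene of the transporter lists by compartment, in order of change within a column, with filled points for genes that passed limma (red higher, blue lower), open points for the others and a line at the median. The 10 genes described run from -0.78 to 1.04, and Slc7a11 at 3.54 is the highest point of all 4 columns.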

How the data were processed

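RNA of 3 insulin-treated and 3 untreated C2C12 cultures (25 ng each, amplified), called biological replicates by the labels, was hybridised to 1 array each. The authors deposited RMA values per the submitters' processing notes, read here as log2 from their range (3.15 to 14.55). Genome build and hybridization batches are not stated, so a batch that coincides with treatment cannot be told apart from it. RMA equalises arrays, changes are therefore relative, and precision rests on having 3 arrays a group.

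Of the probe sets 212097 had exactly 1 symbol in the platform annotation, and those with several (4475) or none (25004) were left out. Gene values were medians over probe sets. Features with a mean under the 30th percentile were left out. The contrast insulin minus control used limma 3.58.1 (R 4.3.3, lmFit and eBayes without covariates, first tested on simulated data), with Benjamini-Hochberg adjustment over all tested features. SEs and intervals come from this fit. Alternatives were the replicate block, other scalings, filters, variance priors, array weights and probe set summaries, and leaving out each array. Genes, lists and rules were chosen with earlier results of these data known. The rule named the 10 genes with their brightest, most and least changed probe sets, called genes of the transporter lists and the nearest patterns. Other probe sets, the called cell type markers and genes at an unadjusted p were named after their values were seen. Deviations of same-numbered arrays correlated at 0.025, 0.195 and -0.00036, and those of differently numbered arrays at -0.10 to 0.069. Only number 2 stood above that range, so the numbers were not taken as pairs in the main fit.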

Additional observations from a re-analysis of the deposited data

How the results depend on the processing

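Of the 16 alternatives, Slc1a4, Slc1a5, Slc7a1 and Slc43a2 passed limma in the same direction under all of them, with log2 changes of 0.67 to 0.91, 1.00 to 1.35, 0.35 to 0.61 and -0.85 to -0.50. With the brightest probe set only 3 of the 10 genes were higher and 1 lower, and Slc7a3 reversed to -0.012. Slc7a3 and Slc43a1 were not tested under the 50th percentile filter. Slc3a2 was lost in 10 alternatives (adjusted p up to 0.119), among them the replicate block (0.0704), which changed no other call among the 10 genes. Leaving out 1 array gave 4 higher and 3 lower of the 10 genes each time. The number of probe sets of these genes ranged from 12 to 24 higher and 3 to 16 lower without 1 array. With the replicate block 8 were lower, and 8 without a filter. The share over all probe sets under these alternatives was not computed. Over all genes, leaving out 1 array gave 663 to 1480 higher and 382 to 969 lower, against 1366 and 908 with all. Without insulin 1, 2 or 3 the higher genes numbered 806, 663 and 707 and the lower ones 462, 382 and 404, and without control 2 they numbered 805 and 429. Array quality weights gave 2608 higher and 2399 lower, and the mean of probe sets 1482 lower. Among the other plasma membrane transporters 4 were lower with array weights, 3 with the mean, 3 with the brighter probe sets, 1 with the replicate block and 0 to 1 without 1 array, against 0. The difference between Slc7a5 and Slc3a2 ranged from -0.19 with the mean of probe sets to -0.0071 without control 1. With the mean of probe sets all insulin arrays were below all control arrays, and the exact permutation p was 0.1, the smallest that 3 against 3 arrays allow. In that setting the log2 change of Slc7a5 was 0.14, as with the median. That of Slc3a2 was 0.34 against 0.23 with the median, and its mean takes in probe set 10465773 (1.13). Apart from what the construction of an alternative shows, the cause was not tested. Signal over background was not available to judge dim probe sets.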
